A study of Mus musculus with 4 samples.

Results

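Collagens are the trimeric proteins that give the extracellular matrix its tensile strength, and each chain is encoded by its own gene. The genes described here are the mouse collagen chains, taken as every probe whose RefSeq accession maps to a symbol made of Col, a type number, the letter a and a chain number. Of 44 such symbols in the annotation, 38 had at least 1 probe on the array, with 59 probes in all, out of 16358 genes named there. The other 6 (Col6a3, Col6a4, Col6a5, Col12a1, Col20a1 and Col22a1) had no matched probe and are not analysed here. The members comprised 11 fibrillar chains on 20 probes, the 6 chains of type IV on 10 probes and 21 chains of other types on 29 probes.

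Fibrillar collagens, chiefly types I, III and V in the liver, are made as procollagens, hydroxylated and folded in the endoplasmic reticulum, trimmed outside the cell and cross-linked into fibrils. Type IV collagen forms the sheet-like network of basement membranes, and the remaining types sit on fibrils, form filaments or span cell membranes. In liver, fibrillar chains are made mainly by stellate cells and portal fibroblasts, type IV chains by sinusoidal endothelial and stellate cells, and type XVIII largely by hepatocytes.

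RNA from perfused liver hepatocytes of HepKO mice, labelled as liver-specific Pnpt1 knockouts, was compared with that of matched wild-type (WT) mice on 4 two-colour arrays. Pnpt1 encodes PNPase, a mainly mitochondrial RNA-processing exonuclease. HepKO mice carried 1 Albumin-Cre allele (a Cre driven by a hepatocyte promoter) with floxed Pnpt1 (Pnpt1 fl/fl, bred from Pnpt1 neo-fl/neo-fl animals), and WT mice carried Pnpt1 fl/fl without Cre. All were C57BL/6J. There were 2 pairs of littermates, each with 1 HepKO and 1 WT mouse. The pair labelled male was 12.29 weeks old by its characteristics (12.9 by another label of its HepKO mouse) and the pair labelled female 4.29 weeks. Livers were digested with collagenase and the washed cell pellet was used, with no sorting step named, so that non-parenchymal cells could remain. Each pair was hybridised on 2 arrays of 1 slide with the dyes exchanged. The 2 arrays of a pair share their RNA and count as 1 replicate, so n = 2 pairs, and age, labelled sex and slide cannot be told apart between them.

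Between 48.2% and 58.6% of probes were well above background in a genotype's channel, and no spot was saturated. Log2 ratios over all probes correlated at 0.901 and 0.912 within the pairs and at 0.755 to 0.815 between them. The 2 Pnpt1 probes gave log2 ratios, HepKO over WT, of -0.10 and -0.52 (limma adjusted p = 0.747 and 0.0800). Both were well above background in all HepKO and WT mice. No source used here places them relative to the floxed exons, so they do not check the genotype labels. Against the labelled sex, Xist was above background in the pair labelled male alone, and 3 genes of the Y chromosome (Kdm5d, Eif2s3y and Ddx3y) in the pair labelled female alone. Both mice of a pair had the same pattern, and the pairs are called by their labels throughout.

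Levels below are log2 channel signals (after background correction and normalization, mean of the 2 dye orientations), given as 1 value per mouse, first for the pair labelled male and then for the pair labelled female. Differences are read for 1 probe between mice. Probes are ranked by signal only to choose the one that stands for a gene, and signals summed over a marker list below are weighted towards its brightest probes. Ratios are log2 HepKO over WT, given as the mean of the 2 pairs with its moderated standard error. A gene was called at an adjusted p under 0.05 in limma's moderated test with Benjamini-Hochberg adjustment over 11495 genes.

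Of the 59 collagen probes, 36 passed the filter of being well above background on both arrays of a pair in at least 1 genotype, and 20 were above background on no array. They measured 29 genes, 25 of them through both genotypes. The other 4 (Col1a1, Col6a2, Col8a1 and Col23a1) passed through HepKO alone and none through WT alone, so that these 4 entered only because they were bright enough in HepKO. The 9 genes not measured were the cartilage chains Col9a1, Col9a3 and Col10a1, the network chain Col8a2, the type VI chain Col6a6, the fibrillar chain Col24a1, and Col19a1, Col26a1 and Col28a1. Among these, Col9a3 was above background on 1 of 4 HepKO arrays and on 0 of 4 WT arrays, and Col10a1 on 1 of 4 arrays of each genotype.

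Transcripts of the 2 general basement membrane chains (Col4a1, Col4a2), of the main fibrillar chains (Col1a1, Col1a2, Col3a1, Col5a1) and of the type VI chain Col6a1 were higher in RNA of the HepKO liver cell pellets. For the 6 other than Col1a1, increases ran between 1.73-fold (Col6a1, with WT levels close to what the array can measure) and 4.41-fold. Thus 7 of the 29 measured genes were called higher, against 12.0% of all genes, and 0 were called lower, against 3.71% of all genes (15.7% in either direction). Of the 4 genes that passed through HepKO alone, 1 (Col1a1) was among the 7. By probe, 9 of 36 were called higher (7.33% of all probes) and 0 lower (2.99% of all probes). The calls need the filter on dim probes and the removal of outlier-flagged spots before background correction. Without the filter, or with those spots kept in the background fit, 0 genes of the whole array passed the adjusted threshold in limma, although 4638 and 3026 did so at an unadjusted p under 0.05, among them 9 and 7 collagens.

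**Figure D1:**
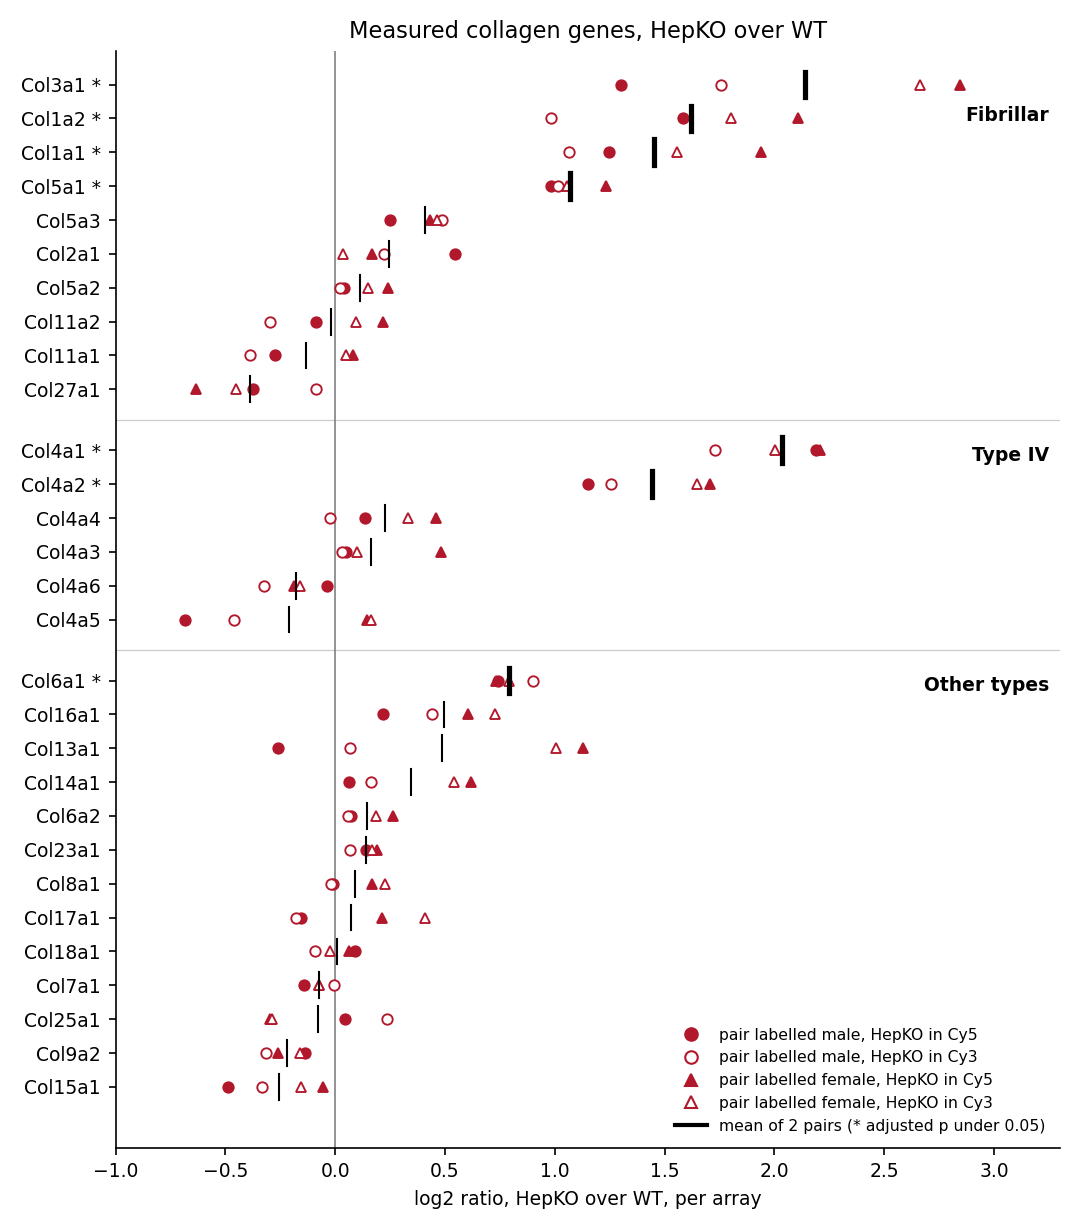
Log2 ratios, HepKO over WT, of the 29 measured collagen genes on each of the 4 arrays, by class. Circles are the pair labelled male and triangles the pair labelled female, filled with HepKO in Cy5 and open with HepKO in Cy3, and the vertical bar is the mean of the 2 pairs. The 7 called genes have all 4 arrays above 0.7, while the means of the 22 others lie between -0.39 and 0.50.

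Col4a1 and Col4a2 encode the chains that assemble, as a heterotrimer, into the network found in nearly all basement membranes. The pair is transcribed in opposite directions from 1 shared promoter region on chromosome 8. The start sites in the RefSeq promoter table (GRCm38.p6) lay 21 bases apart on opposite strands. The plus-strand Col4a2 start (11312805) had a lower coordinate than the minus-strand Col4a1 start (11312826), so the transcripts overlap at their 5′ ends. The windows of both genes, from 250 bases before to 50 after the start, shared 78 bases. Of the 7 called genes, 6 had a promoter in that table. The 4 of these with the largest log2 ratios are printed, to show the shared region of the type IV pair beside the fibrillar chains. Capitals mark each match to CCAAT (or its reverse complement ATTGG), the letters bound by the NF-Y factor, and to TATAAA (the TATA box). Both strands were searched, and no matches overlapped. The windows are chr8:11312777-11313076 (minus strand) for Col4a1, chr8:11312555-11312854 (plus) for Col4a2, chr6:4505368-4505667 (plus) for Col1a2 and chr1:45311288-45311587 (plus) for Col3a1, each printed 5′ to 3′ on the gene's strand.
Col4a1: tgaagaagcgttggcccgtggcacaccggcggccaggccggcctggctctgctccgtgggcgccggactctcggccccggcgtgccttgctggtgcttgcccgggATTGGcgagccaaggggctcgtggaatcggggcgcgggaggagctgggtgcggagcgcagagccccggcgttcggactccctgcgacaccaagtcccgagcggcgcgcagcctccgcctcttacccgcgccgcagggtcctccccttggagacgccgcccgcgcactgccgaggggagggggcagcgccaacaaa
Col4a2: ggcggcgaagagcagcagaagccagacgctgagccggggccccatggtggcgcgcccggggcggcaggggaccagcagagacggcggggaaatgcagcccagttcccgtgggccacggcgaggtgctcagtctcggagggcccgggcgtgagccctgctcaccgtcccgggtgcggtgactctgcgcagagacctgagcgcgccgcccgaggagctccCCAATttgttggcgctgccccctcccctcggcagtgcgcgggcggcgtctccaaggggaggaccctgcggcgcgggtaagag
Col1a2: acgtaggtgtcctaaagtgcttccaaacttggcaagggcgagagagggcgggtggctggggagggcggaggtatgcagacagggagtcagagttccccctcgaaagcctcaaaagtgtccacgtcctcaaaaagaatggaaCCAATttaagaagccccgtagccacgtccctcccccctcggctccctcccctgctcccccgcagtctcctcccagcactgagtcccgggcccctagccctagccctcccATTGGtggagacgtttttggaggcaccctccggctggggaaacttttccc
Col3a1: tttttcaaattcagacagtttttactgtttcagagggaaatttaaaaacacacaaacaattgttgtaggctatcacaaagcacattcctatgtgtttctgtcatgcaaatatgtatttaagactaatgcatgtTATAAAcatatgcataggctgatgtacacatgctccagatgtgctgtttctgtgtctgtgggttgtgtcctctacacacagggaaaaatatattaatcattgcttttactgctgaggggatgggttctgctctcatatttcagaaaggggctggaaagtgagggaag

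With the start site as 0, the reverse match in Col4a1 began at -145 and the forward match in Col4a2 at -32. Col1a2 held a forward match at -109 and a reverse match at 0. Col3a1 held no CCAAT match and a TATAAA match beginning at -117. A CCAAT match stood in 3 of the 6 promoters of called collagens and in 37.4% of the 32851 promoters of the table, and a TATAAA match in 1 of 6 and in 13.6%. These matches describe the letters of the windows and say nothing of what binds there. GC content was 74.0% in the Col4a1 window, 73.7% in Col4a2, 61.0% in Col1a2 and 37.7% in Col3a1.

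Col4a1 had levels of 10.88 and 10.44 in HepKO mice, against 8.92 and 8.33 in WT mice. Both HepKO levels exceeded both WT levels, and the ratio was 2.03 ± 0.15 (n = 2 pairs, limma adjusted p = 0.0122), or 4.10-fold. A second Col4a1 probe gave 2.28 ± 0.16 (adjusted p over probes = 0.0193). Col4a2 had levels of 9.998 and 9.89 in HepKO mice, against 8.79 and 8.21 in WT mice. Its groups did not overlap either, with a ratio of 1.44 ± 0.18 (adjusted p = 0.0216) or 2.72-fold, and its second probe gave 1.25 ± 0.16 (adjusted p = 0.0332). Both probes of both chains were thus higher in HepKO on every array.

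The other type IV chains are those of restricted membranes, such as the kidney glomerulus for Col4a3, Col4a4 and Col4a5. None of the 4 was called. Col4a4 had levels of 7.70 and 7.24 in HepKO mice, against 7.65 and 6.85 in WT mice, and a ratio of 0.23 ± 0.16 (adjusted p = 0.377). Col4a3 gave 0.16 ± 0.15 and was above background in WT on 2 of 4 arrays. Col4a5 gave -0.21 ± 0.23, with the pairs on opposite sides of 0. Col4a6 gave -0.18 ± 0.14 (adjusted p = 0.416). With the log ratios that the scanner software made, Col4a6 was called lower at -1.11 (adjusted p = 0.0391).

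Among the fibrillar chains, 4 of 10 measured genes were higher in HepKO. Col3a1, the homotrimeric type III collagen of reticular fibres, had levels of 10.01 and 10.31 in HepKO mice, against 8.48 and 7.56 in WT mice. The groups did not overlap. The ratio was 2.14 ± 0.33 (adjusted p = 0.0298), or 4.41-fold, with 1.53 in the pair labelled male and 2.75 in the pair labelled female. Without replicate 2 of the pair labelled male the ratio was 2.03 and the call was lost (adjusted p = 0.0573). A second Col3a1 probe was above background on no array.

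Type I collagen, the most abundant fibril of scar and bone, is built from Col1a1 and Col1a2 chains. Col1a2 had levels of 9.52 and 9.86 in HepKO mice, against 8.23 and 7.90 in WT mice, without overlap. Its ratio was 1.62 ± 0.22 (adjusted p = 0.0238), or 3.07-fold. Col1a1 had levels of 7.57 and 7.98 in HepKO mice, against 6.41 and 6.23 in WT mice, and its ratio was 1.45 ± 0.20 (adjusted p = 0.0257). It was well above background on 4 of 4 HepKO arrays and on 1 of 4 WT arrays (0 of 2 in the pair labelled female). It thus entered the test through HepKO alone, against a WT level close to what the array can measure, and no fold is given. With the scanner software's log ratios, which add no offset to dim signals, Col1a1 reached 3.40.

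A second Col1a1 probe was above background on 4 of 4 HepKO arrays and on 0 of 4 WT arrays. Its mean level was 6.80 in HepKO and not well above background, at 6.11, in WT. By the probe test its ratio of 0.69 ± 0.15 did not pass (adjusted p = 0.0704). The third Col1a1 probe was above background on no array.

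Col5a1, a chain of the type V collagen that nucleates type I fibrils and sets their width, had levels of 8.04 and 8.03 in HepKO mice, against 7.04 and 6.88 in WT mice. The groups did not overlap, and the ratio was 1.07 ± 0.15 (adjusted p = 0.0243), or 2.10-fold. Its 2 probes disagreed. The dimmer one was above background in all mice and gave -0.07 ± 0.13 (adjusted p = 0.736), and with the mean of both probes Col5a1 was not called (0.50, adjusted p = 0.0833).

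**Figure D2:**
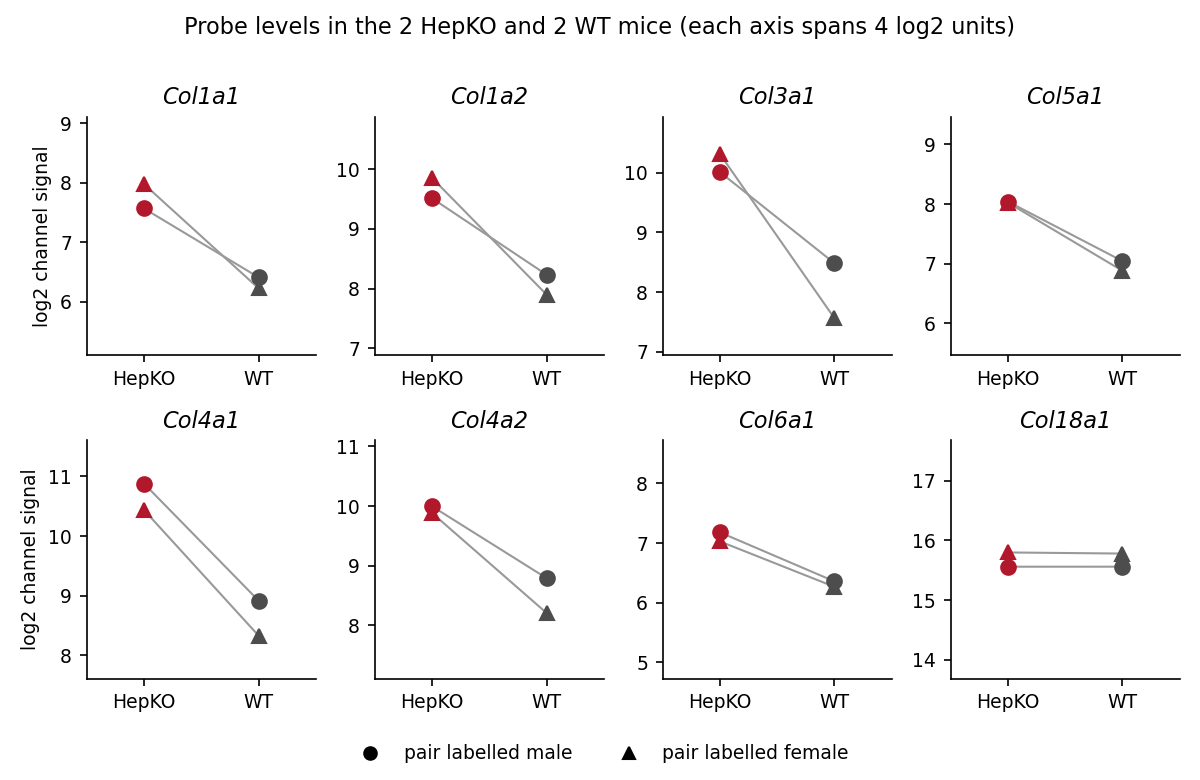
Log2 channel signal of 8 collagen probes in the 2 HepKO mice (left, red) and the 2 WT mice (right, grey), with a line joining the mice of a pair. Each axis spans 4 log2 units; HepKO levels exceed WT levels in both pairs for the 7 called genes, and Col18a1 is level at 15.6 to 15.8 in all mice.

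The partner chains of type V were not called. Col5a2 gave 0.11 ± 0.15 (adjusted p = 0.615). Col5a3 had levels of 8.41 and 8.54 in HepKO mice, against 8.04 and 8.09 in WT mice, without overlap, and a ratio of 0.41 ± 0.14 (adjusted p = 0.128). The chains known mainly from cartilage were not called. Col2a1 gave 0.24 ± 0.16, with both HepKO levels above both WT levels, Col11a1 gave -0.13 ± 0.17 and Col11a2 gave -0.02 ± 0.17. Col27a1, also a cartilage fibril chain, had levels of 6.20 and 6.52 in HepKO mice, against 6.43 and 7.06 in WT mice. Its ratio of -0.39 ± 0.16 was not called (adjusted p = 0.172), but with the scanner software's log ratios it was called lower at -1.50 (adjusted p = 0.0235).

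Leaving aside Col1a1, 5 of the other 6 called genes had the larger ratio in the pair labelled female, Col6a1 being the exception. For Col1a2 it was 1.28 in the pair labelled male and 1.96 in the pair labelled female. For Col4a1 it was 1.96 and 2.11 in the same order. Each pair is 1 replicate, so this difference was not tested. For Col3a1, the WT level was 8.48 in the pair labelled male and 7.56 in the pair labelled female, while the HepKO levels were 10.01 and 10.31.

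Of the 13 measured chains of other types, 1 was called. Col6a1, a subunit of the beaded type VI filaments that surround cells, had levels of 7.18 and 7.03 in HepKO mice, against 6.36 and 6.27 in WT mice. The groups did not overlap, and the ratio was 0.79 ± 0.14 (adjusted p = 0.0384), or 1.73-fold. It was above background on 3 of 4 WT arrays. Its WT levels were close to what the array can measure, so the fold depends on the offset added to dim signals. The call was lost without replicate 2 of the pair labelled male (adjusted p = 0.0674) and with the arrays that had HepKO in Cy5 alone (adjusted p = 0.0512). The software's log ratios, which add no such offset, gave a log2 ratio of 1.74. Its partner Col6a2 was above background on 4 of 4 HepKO arrays and on 0 of 4 WT arrays, with a ratio of 0.15 ± 0.15 that was not called (adjusted p = 0.511).

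Col18a1 encodes the heparan sulphate-bearing type XVIII collagen, the precursor of endostatin, and is a multiplexin of basement membranes. Its levels were 15.56 and 15.80 in HepKO mice, against 15.56 and 15.78 in WT mice. HepKO and WT levels overlapped, and the ratio was 0.01 ± 0.14 (adjusted p = 0.971). A second probe gave -0.08 ± 0.13. Under the alternatives its ratio ran between -0.44, with each array centred on its median instead of loess, and 0.08, and it was called under none of the 15. The other multiplexin, Col15a1, gave -0.26 ± 0.16 (adjusted p = 0.312).

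The fibril-associated chains, which bind fibril surfaces, gave 3 measured genes. Col16a1 had levels of 7.05 and 7.35 in HepKO mice, against 6.72 and 6.68 in WT mice, without overlap. Its ratio of 0.50 ± 0.16 passed at an unadjusted p of 0.0371 and not after adjustment (0.116). Col14a1 gave 0.35 ± 0.18 (adjusted p = 0.250). Col9a2 gave -0.22 ± 0.14 (adjusted p = 0.328).

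The transmembrane chains gave 4 measured genes, none called. Col13a1, a chain of cell adhesion sites, had levels of 7.88 and 8.34 in HepKO mice, against 7.97 and 7.27 in WT mice. The levels overlapped, since the ratio was -0.10 in the pair labelled male and 1.07 in the pair labelled female, and their mean of 0.49 ± 0.32 was not called (adjusted p = 0.334). Its dimmer probe gave -0.23 and 0.15 in the same pairs. Col17a1 of hemidesmosomes gave 0.07 ± 0.18, Col23a1 gave 0.14 ± 0.14 and Col25a1 gave -0.08 ± 0.18. Col7a1, of the anchoring fibrils of skin, gave -0.07 ± 0.14, and Col8a1, a network chain of vessel walls, gave 0.09 ± 0.15.

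The HepKO levels both exceeded the WT levels in 14 of the 29 measured collagens, near the 41.9% of all genes. Among the 14, Col1a1, Col6a2 and Col23a1 passed the filter through HepKO alone, which favours that order. Both HepKO levels lay below both WT levels in 2, against 26.8% of all genes. Uncalled ratios ran between -0.39 and 0.50, with adjusted p between 0.116 and 0.971. With 2 pairs, a ratio that missed the threshold does not show that the level was the same.

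**Figure D3:**
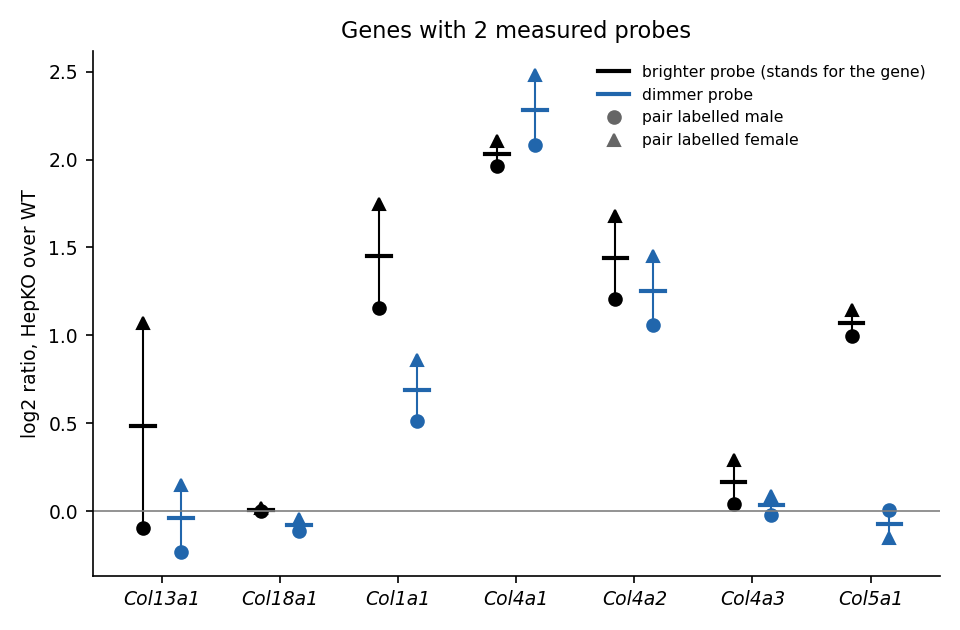
Log2 ratio, HepKO over WT, in each pair for the 7 collagen genes with 2 measured probes; circles are the pair labelled male, triangles the pair labelled female, and the bar is their mean. Both probes are above 1 for Col4a1 and Col4a2, while the dimmer Col5a1 probe is near 0 and that of Col1a1 is at 0.69 against 1.45.

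Genes that act on collagens were read from lists chosen for their roles, 136 genes in all, of which 126 had a probe and 100 were measured. Of these, 23 were higher in HepKO and 0 lower, against 12.0% and 3.71% of all genes, with a median ratio of 0.30 against 0.08 over all genes. Of the 100, 15 were above background on no WT array and so passed through HepKO alone, and 1 of these (Mmp13) was called. Genes above background on 1 WT array also entered through HepKO alone and are not in the 15. With the scanner software's log ratios the median was 0.80, against 0.01 over all genes. The lists were picked with earlier results of these data known, so the counts are descriptions.

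Collagen synthesis begins in the endoplasmic reticulum. Of 19 measured modifying enzymes and chaperones of procollagen, 2 were higher, near the 12.0% of all genes. The list median of 0.10 turned to -0.01 with the scanner software's log ratios and was 0.21 with each array centred on its median. Serpinh1, the collagen chaperone HSP47, had levels of 9.28 and 9.56 in HepKO mice, against 8.34 and 7.55 in WT mice, with a ratio of 1.48 ± 0.30 (adjusted p = 0.0486). Crtap, part of the prolyl 3-hydroxylation complex, gave 0.96 ± 0.15 (adjusted p = 0.0307). Mia3 (TANGO1) and Mia2 (cTAGE5), which load procollagen into transport carriers, gave -0.66 ± 0.16 and -0.56 ± 0.15, neither called (adjusted p = 0.0664 and 0.0792).

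Outside the cell, procollagen is trimmed and cross-linked, and 3 of 8 measured genes of this step were higher, against 12.0% of all genes. Tgm2, a cross-linking transglutaminase, had levels of 15.58 and 14.96 in HepKO mice, against 12.87 and 13.12 in WT mice, with a ratio of 2.28 ± 0.26 (adjusted p = 0.0187). Pcolce, the enhancer of procollagen C-proteinase, gave 1.97 ± 0.20 and the lysyl oxidase Loxl2 1.42 ± 0.15 (adjusted p = 0.0165 and 0.0173). Adamts2, the procollagen N-proteinase, gave 0.69 ± 0.26 and was not called. Lox did not pass the filter on dim probes.

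Collagen is broken down by metalloproteinases and taken up by endocytic receptors. In this list 2 of 12 measured genes were higher, near the 12.0% of all genes. Mmp13, a collagenase, was above background on 4 of 4 HepKO arrays and on 0 of 4 WT arrays. It passed the filter through HepKO alone. Its levels were 8.64 and 7.67 in HepKO mice, against 6.07 and 6.13 in WT mice, with a ratio of 2.06 ± 0.29 (adjusted p = 0.0258). The WT levels were not well above background, and no fold is given. The gelatinase Mmp2 gave 1.04 ± 0.14 (adjusted p = 0.0243) and was above background on 2 of 4 WT arrays. Mrc1 and Mmp14 gave 0.54 ± 0.15 and 0.43 ± 0.21, neither called. Of 5 measured inhibitors 1 (Timp3) was higher, a count too small to set apart from the 12.0% of all genes. Timp3, bound to the matrix, had levels of 10.09 and 9.34 in HepKO mice, against 7.73 and 7.43 in WT mice, with a ratio of 2.13 ± 0.18 (adjusted p = 0.0148). Timp1 gave -0.29 ± 0.15 and Timp2 gave -0.18 ± 0.38, both uncalled.

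Of 8 measured collagen receptors 4 were higher, against 12.0% of all genes. Ddr1, a tyrosine kinase switched on by collagen, had levels of 10.06 and 9.59 in HepKO mice, against 6.72 and 6.51 in WT mice, and a ratio of 3.21 ± 0.16 (adjusted p = 0.00993). Cd36, a scavenger receptor with many ligands besides collagen, gave 3.27 ± 0.33 (adjusted p = 0.0160). Lair1, an inhibitory receptor of immune cells, gave 1.76 ± 0.17, and Adgrg1, an adhesion receptor that binds type III collagen, 1.41 ± 0.20.

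Among proteins that bind fibrils, 4 of 13 were higher, against 12.0% of all genes. The partners of type IV collagen in basement membranes had 5 of 14 higher, against the same share. Sparc, a collagen-binding secreted protein in both lists, had levels of 11.53 and 11.34 in HepKO mice, against 10.45 and 9.18 in WT mice, with a ratio of 1.62 ± 0.30 (adjusted p = 0.0412). Tgfbi gave 1.86 ± 0.21 and the fibril-spacing proteoglycan lumican (Lum) 0.78 ± 0.16 (adjusted p = 0.0184 and 0.0468). Postn (periostin) gave 0.87 ± 0.19 and was not called (adjusted p = 0.0541).

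Of the basement membrane partners, Smoc2 gave 2.92 ± 0.20 (adjusted p = 0.0122). Nid1, the nidogen that links laminin to type IV collagen, had levels of 10.64 and 9.50 in HepKO mice, against 8.35 and 7.32 in WT mice, and a ratio of 2.24 ± 0.14 (adjusted p = 0.0116). The laminin chain Lamc1 gave 1.25 ± 0.15 (adjusted p = 0.0190).

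Regulators of collagen synthesis had 3 of 22 measured genes higher, near the 12.0% of all genes. Their median was 0.24, against 0.79 with the scanner software's log ratios and 0.45 with each array centred on its median. Tgfbr2, the type II TGF-β receptor, gave 1.95 ± 0.17 (adjusted p = 0.0150). Its ligand gene Tgfb1 gave 1.02 ± 0.15 and the matricellular Ccn2 1.06 ± 0.20 (adjusted p = 0.0283 and 0.0405). Bambi, a decoy receptor, gave 1.48 ± 0.44 and was not called (adjusted p = 0.0972).

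**Figure D4:**
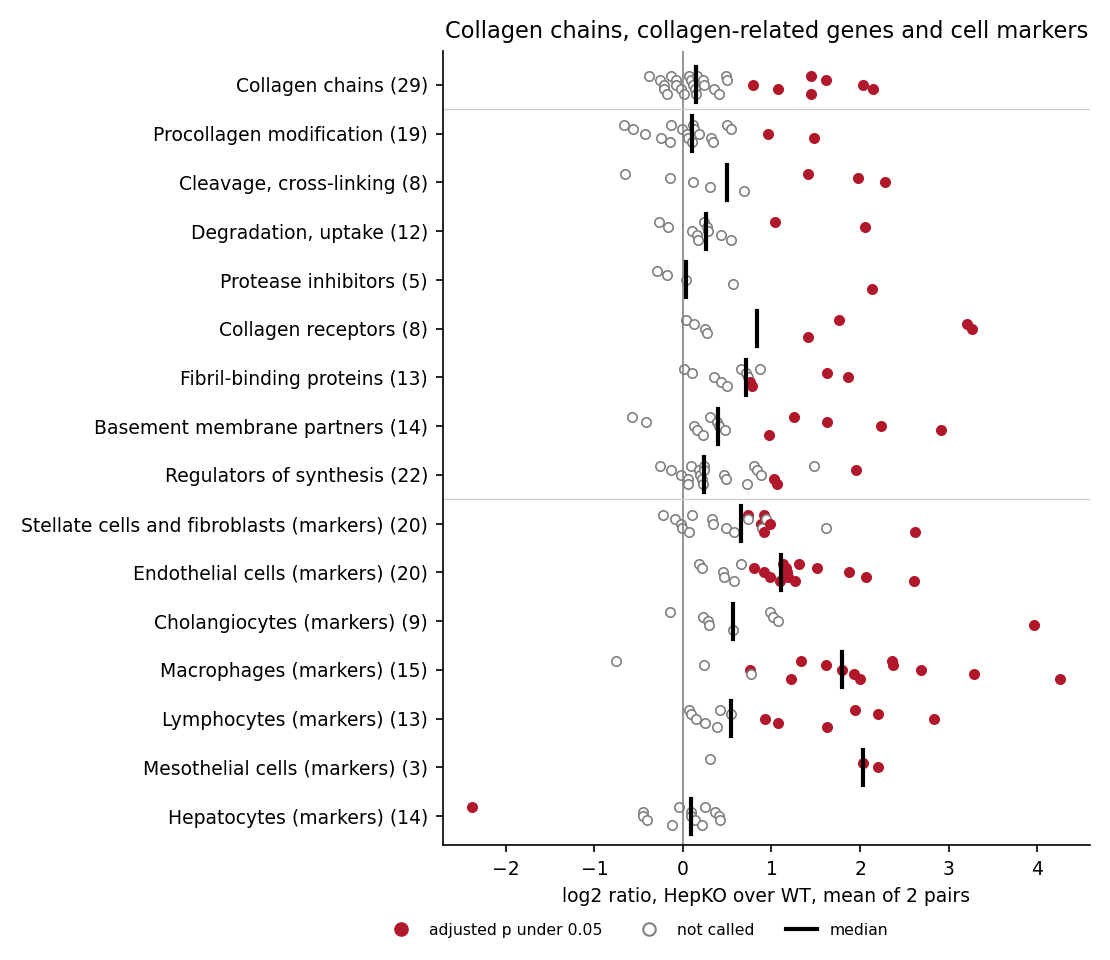
Log2 ratio, HepKO over WT (mean of 2 pairs), of each measured gene of the collagen family, of 8 lists of collagen-related genes and of 7 lists of cell markers, with the number measured in brackets. Filled points have an adjusted p under 0.05 and bars are medians; the macrophage and endothelial marker medians are 1.80 and 1.11, and that of the collagens is 0.15.

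Many markers of other liver cells were also higher in HepKO. In such bulk RNA, a change in the number of cells of a type and in RNA per cell cannot be told apart. Of 22 stellate cell and fibroblast markers, 20 were measured and 6 were higher (12.0% of all genes), with a median ratio of 0.65. Their summed linear signal was 35525.5 and 33100.5 in HepKO mice, against 22098 and 17074 in WT mice. Vim gave 2.62 ± 0.18 and Hand2, a stellate cell transcription factor, 0.99 ± 0.18, while Hgf (0.93 ± 0.25) was not called. The markers Dpt and Gfap were not above background in any mouse.

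Of 20 endothelial markers, all measured, 14 were higher, against 12.0% of all genes. Their summed signal was 26617 and 26385 in HepKO mice, against 13777 and 10462 in WT mice. Cd34 gave 2.61 ± 0.19 and Lyve1, of sinusoidal endothelium, 2.07 ± 0.16. Macrophage markers had 12 of 15 higher, against 12.0% of all genes, led by Marco at 4.26 ± 0.29 and Fcgr1 at 3.28 ± 0.40. Cd163, named after its value was seen, lay below 0 on every array at -0.75 ± 0.18 and was not called (adjusted p = 0.0666). The summed signal of the macrophage markers was 82954 and 85890 in HepKO mice, against 10577 and 24057 in WT mice. Of the lymphocyte markers 6 of 13 were higher, against 12.0% of all genes, with Gzmb at 2.83 ± 0.35 and Nkg7 at 2.20 ± 0.19. Their summed signals were 3636 and 2440 in HepKO mice, against 1040 and 1115 in WT mice. Of 9 measured cholangiocyte markers 1, Spp1 (3.96 ± 0.40), was higher, and the summed signal was 3787 and 7059 in HepKO mice, against 1518 and 1446 in WT mice. That count is near the 12.0% of all genes. Without Spp1, the other 8 summed to 1701 and 1828 in HepKO mice, against 1290 and 1247 in WT mice. Above background on no WT array were 1 endothelial, 2 macrophage, 5 lymphocyte and 3 cholangiocyte markers of those measured. These passed through HepKO alone and were not called. The called lymphocyte marker Cd8b1 was above background on 1 of 4 WT arrays and also entered through HepKO alone.

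Of 9 mesothelial markers, 6 (Upk3b, Upk1b, Wt1, Lrrn4, Gpm6a and Bnc1) were above background on no array. Krt8 (2.21 ± 0.26) and Krt18 (2.04 ± 0.36), which hepatocytes also express, were higher, and Msln was not called. Hepatocyte markers had 0 of 14 higher and 1 lower, Cyp2e1 at -2.38 ± 0.30 (12.0% and 3.71% of all genes). They were above background on every array. Their summed signal was 1281750 and 1501130 in HepKO mice, against 1533990 and 1257420 in WT mice, and the genotypes overlapped. The part of other cell types in the collagen ratios was not tested.

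Outside the family, the genes whose 4 array ratios lay nearest to those of Col1a1 were Adgrg1, Mcm4 (a replication helicase subunit) and Serpinb6a, at Euclidean distances of 0.13, 0.16 and 0.17 in log2 units. Within the family, Col4a2 was nearest at 0.33, followed by Col1a2 at 0.46. Distances over 4 arrays of 2 pairs describe these arrays alone. The Col1a1 ratios were taken against WT levels close to what the array can measure, so the distances hold for this processing alone.

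**Figure D5:**
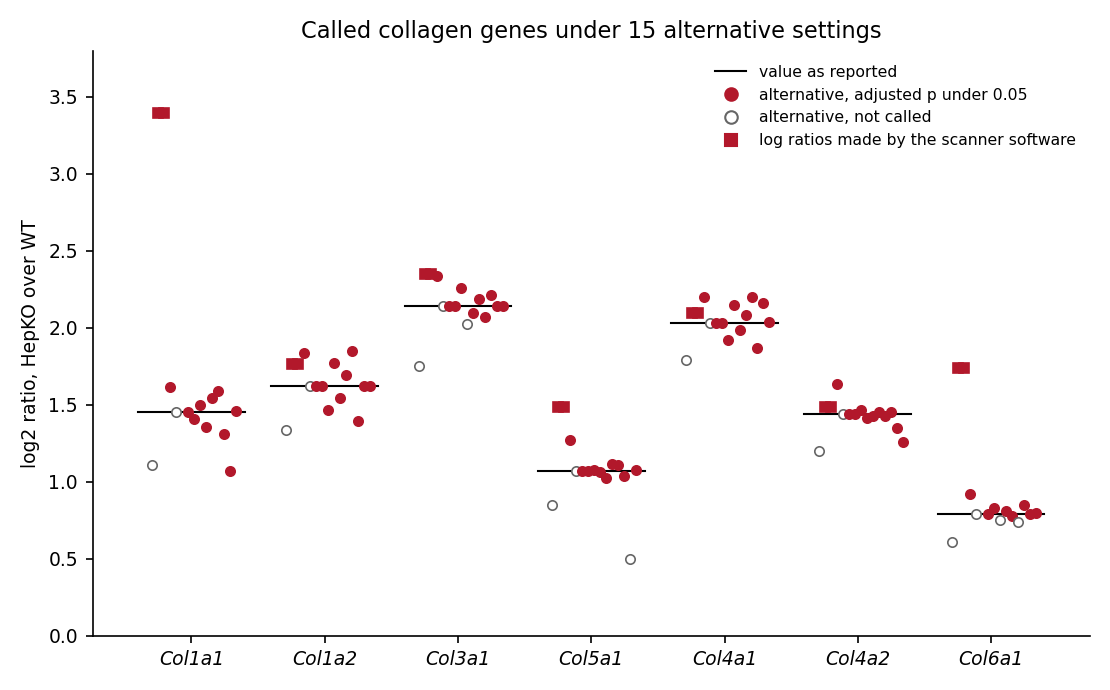
Log2 ratio, HepKO over WT, of the 7 called collagen genes as reported (line) and under up to 15 alternative settings (points); filled points have an adjusted p under 0.05, and squares are ratios made by the scanner software. Every point is above 0, Col1a1 and Col6a1 reach 3.40 and 1.74 with the software's ratios, and Col5a1 drops to 0.50 with the mean of its 2 probes.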

How the data were processed

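Liver cell RNA of 2 HepKO and 2 WT mice was read on 4 two-colour Agilent arrays. Per the file headers, Agilent Feature Extraction 10.2.1.3 made the authors' deposited intensity values, of which the mean spot signal and median local background of each channel were used. Per the file headers, the same software subtracted background and corrected dye bias in the deposited log10 ratios of red over green. The authors' value table holds these log10 ratios, turned to HepKO over WT.

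Spots with outlier flags (178 to 260 per array) were left out, signals were corrected with normexp (offset 50) and normalized by loess within arrays (1639 control spots at weight 0) in limma 3.58.1 under R 4.3.3. Flagged spots left before the normexp fit because earlier results had shown a background of up to 41156.5 on replicate 2 of the pair labelled female, against a median of 29. Dye-exchanged arrays of a pair were averaged. Levels came from loess followed by Aquantile scaling. Signal over background and the number of pairs limit the precision.

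Probes (22951 of 41174 named) were matched by RefSeq accession to GRCm38.p6 names. A probe was kept when well above background on both arrays of a pair in at least 1 genotype, and each gene was represented by its brightest kept probe. An intercept was fitted on the 2 pair values (1 residual and 3.12 prior degrees of freedom), with Benjamini-Hochberg adjustment over 11495 genes or 22807 probes. The procedure was tested on simulated data. Named genes were all collagens, the 2 to 4 largest changes in each list, label checks and the 3 genes nearest to Col1a1. One gene that this rule names is not reported here. The members, lists and rules were chosen with earlier results of these data known. Alternatives covered background correction, normalization, filter, slide, dye, probe choice and each array left out.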

Additional observations from a re-analysis of the deposited data

Results flagged for a closer look

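In 6 collagens, none of them called, both arrays of one pair lay on the opposite side of 0 from both arrays of the other pair. Each pair is 1 replicate, so the differences were not tested. The difference in log2 ratio, pair labelled male minus pair labelled female, was -0.72 for Col4a5 (-0.57 and 0.15), -0.48 for Col17a1 (-0.17 and 0.31) and -0.40 for Col11a1 (-0.33 and 0.06). It was -0.35 for Col11a2 (-0.19 and 0.16), -0.21 for Col8a1 (-0.02 and 0.20) and 0.43 for Col25a1 (0.14 and -0.29). Col4a5 was above background in both arrays of the WT mouse and in neither of the HepKO mouse in the pair labelled male, and the other way round in the pair labelled female. Col17a1, Col11a2 and Col8a1 were above background on 0 of 2 WT arrays of the pair labelled female. In these pairs the ratio is taken against a signal not well above background. Pairs differ in age, labelled sex and slide at once.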

How the results depend on the processing

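The 7 called collagens stayed above 0 under all 15 alternatives that measured them, and no called gene turned its sign. With normexp fitted on all spots, 0 collagen genes, 0 probes and 0 related genes were called higher. The smallest adjusted p over all genes was then 0.0696, and the 7 had log2 ratios of 0.61 to 1.79. Without the filter on dim probes the counts were also 0, 0 and 0, with the same ratios as reported, 16339 genes in the adjustment and a smallest adjusted p of 0.0689. The cause of the first was not tested. With the Feature Extraction log ratios, and likewise with the authors' value table, the same 7 genes were higher, 2 collagen genes (Col27a1 and Col4a6) and 2 probes were lower, and 1 related gene was lower (Lamb3, named after its value was seen). Over all genes those log ratios called 13.9% higher and 4.72% lower, and the values of the authors gave 13.7% higher and 4.58% lower. The strict filter left 5 called of 18 measured, against 12.4% of all genes called higher, since it dropped Col1a1 and Col6a1. Leaving out each array in turn gave 5 to 7 collagen genes, 7 to 9 probes and 18 to 27 related genes higher. The share of all genes called higher then ran between 8.01%, without replicate 2 of the pair labelled male, and 13.7%. The planned slide block with a dye term was not run, because too few arrays remained to estimate it. A slide block without that term, chosen after seeing the data, gave 9 collagen genes higher (Col5a3 and Col16a1 added), 39 related genes higher and 5 lower (Bmp1, Lamb3, Mia2, Mia3 and Smoc1), at a within-slide correlation of 0.47, where 23.4% of all genes were called higher and 12.1% lower. Leaving out background population flags, also chosen later, gave 7. Of 423 values of single collagen genes under an alternative, 384 kept their side of 0 and of the threshold, 18 fell out of the call, 6 entered it and 15 crossed 0, all uncalled. Of 225 list medians, 59 moved by more than the spread between pairs. Among all calls, the share of higher calls was 76.3%, and ran between 65.8% with the slide block and 84.7% with median centring.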
